A study of Tachysurus fulvidraco x Tachysurus vachelli with 6 samples.

Results

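The NLR family receptors of fish are described here as the gene models of the deposited catfish annotation whose description, in any letter case, contains NLRC3, NLRC5, NLRP, NACHT or nucleotide-binding oligomerization domain. This rule found 164 of 28288 genes. NLR proteins are sensors of the cell interior. Most carry a NACHT domain, which binds nucleotides and drives assembly into oligomers, followed by leucine-rich repeats that take part in recognition. In mammals NOD1 and NOD2 respond to fragments of bacterial cell walls and signal through the kinase RIPK2 to NF-κB, NLRP3 builds inflammasomes with the adaptor ASC and caspase-1, NLRC5 drives transcription of MHC class I genes, and NLRC3 dampens innate and T cell signaling. Bony fish kept the conserved receptors and in addition carry a large expansion of fish-specific NLR genes, many of which annotation pipelines name after NLRC3 or NLRP12.

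The libraries came from livers of hybrid yellow catfish, the offspring of Tachysurus fulvidraco females and Pseudobagrus vachellii males. T_liver fish had received feed with 4 g/kg of Acanthopanax senticosus, Siberian ginseng, and C_liver fish the same basal feed with 0 g/kg, in each case for 56 days, and the fish of both groups were starved before sampling. Poly(A) RNA was sequenced in 3 libraries per group. RNA was mixed within a group before library preparation and the number of fish behind a library is not stated, so n counts libraries and the P values measure the spread between libraries only.

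Reads of the hybrid had been aligned to the genome of 1 parent, T. fulvidraco, and how reads matching several similar copies were assigned is not given in the sources used here. Levels of near-identical copies are therefore uncertain. The libraries held 44153673 to 51459627 counts on genes. Of the fixed marker lists, the 9 tested hepatocyte models summed to 28137 to 44264 CPM (counts per 1000000 after TMM normalization) in T_liver and 28248 to 33316 CPM in C_liver, and none was called. The exocrine pancreas list differed between the groups, with 10 of 12 tested models called higher in T_liver. Its 13 models summed to 617, 160 and 446 CPM in T_liver 1, 2 and 3, against 31.5, 22.9 and 132 CPM in C_liver 1, 2 and 3, and 1 amylase model was at 0 throughout. Its part in the results below was not tested.

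The description NLRC3 was by far the most common. It was given to 111 of the 164 models, NLRP12 to 17, NLRP4E to 15, NLRP3 to 8 and NLRP1b to 5. Singly named receptors were few, with 2 NLRC5 models and 1 each for NLRP9, NOD1 and NOD2. The remaining 3 were NACHT-domain proteins with WD repeats, including nwd1 and nwd2, which the rule takes in although they lack the leucine-rich repeats of classical NLRs. The descriptions are names of best matches, 146 of them in channel catfish (Ictalurus punctatus), so they state similarity and not orthology. In all, 158 models carried a LOC number in place of a symbol, 19 were marked low quality, 27 overlapped another gene model, and 127 were annotated to the KEGG pathway NOD-like receptor signaling.

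The models were spread over 88 scaffolds, of which 54 held 1 model. Many nevertheless lay close together, as 93 of the 164 had another member within 100000 bp. On 6 scaffolds there were 5 or more members, 40 in all. The most were on NW_020847763.1, with 10 members over 7909727 bp. The spans ranged from 156516 bp on NW_020847830.1 to 12304060 bp on NW_020847801.1, so members of a scaffold are not always close neighbors.

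In liver, 153 of the 164 models had a count in at least 1 library and 95 had counts in every library. FPKM, fragments scaled to gene length and library size, was used to compare levels between models because it accounts for length. A mean FPKM over the 6 libraries of at least 1 was reached by 67 models (40.9%), against 40.7% of all genes in the table. A further 65 models lay between 0.1 and 1 FPKM, and 32 lay under 0.1, among them the 11 without a count. Expression of the family was thus broad, but at a low level. The median over the 67 models that reached 1 FPKM was 2.17 FPKM, against 4.58 over all genes that did.

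Only 10 models reached 5 FPKM, 9 NLRC3 models and 1 NLRP12 model. NLRC3 models also made up 46 of the 67 at 1 FPKM or more, followed by 8 of the 15 NLRP4E models, 5 of the 17 NLRP12 models, 3 of the 5 NLRP1b models, both NLRC5 models, 2 of the 8 NLRP3 models and nod1. None of the NACHT-WD models, the NLRP9 model or nod2 reached it.

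**Figure D1:**
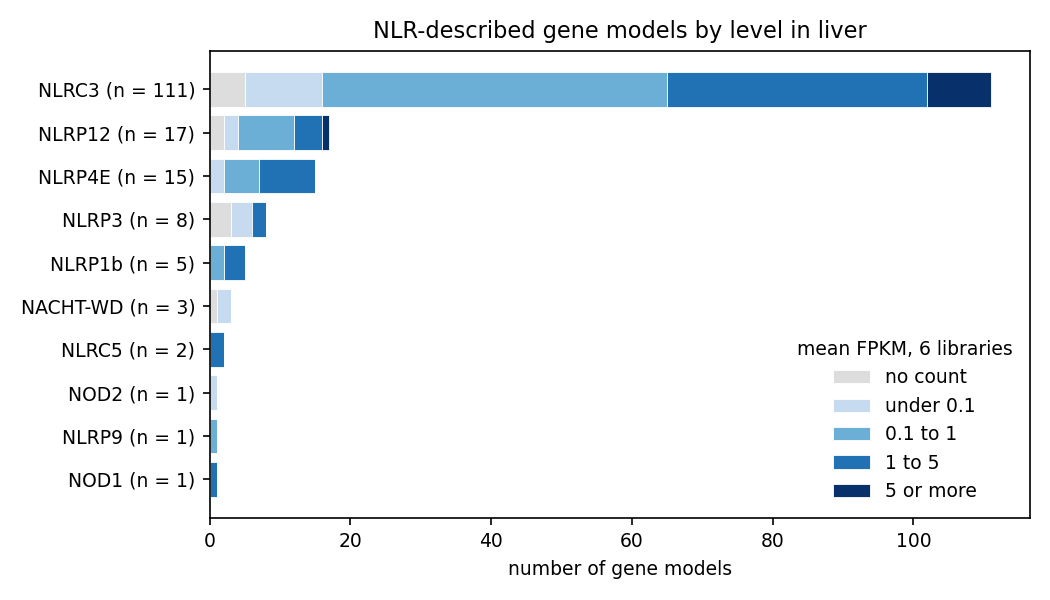
Number of gene models (horizontal axis) by description (vertical axis), shaded by mean FPKM over the 6 libraries. NLRC3 models dominate every class except that without a count, where they are 5 of 11, and 9 of the 10 models at 5 FPKM or more are NLRC3 models.

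The 10 models with the highest CPM took 44.0% of the summed CPM of the family. The highest FPKM belonged to LOC113636435, an NLRC3 model that spans 108198 bp of its scaffold and overlaps another gene model, at a mean of 16.4 FPKM. It measured 82.5, 123 and 62.0 CPM in T_liver 1, 2 and 3, against 84.8, 143 and 80.2 CPM in C_liver 1, 2 and 3. The groups overlapped, with the lowest library in T_liver and the highest in C_liver, and the log2 fold change was -0.20 (SE 0.36, unadjusted P = 0.597, adjusted P = 0.896, edgeR). LOC113638331, an NLRC3 model at 12.5 FPKM, also overlapped between the diets, with 34.1, 37.7 and 31.7 CPM in T_liver and 39.6, 47.5 and 21.0 CPM in C_liver (log2 fold change -0.06).

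None of the 8 other models above 5 FPKM was a DE gene either. Their log2 fold changes were -0.18 for LOC113646198, 0.23 for LOC113658673, 0.25 for LOC113634822, -0.34 for LOC113638297, -0.06 for LOC113634793, 0.29 for the NLRP12 model LOC113641703, 0.11 for LOC113663807 and 0.68 for LOC113662843. The last of these varied most within a group, at 10.7, 92.8 and 78.5 CPM in T_liver and 10.6, 85.3 and 17.5 CPM in C_liver. In each group it was near 10 CPM in replicate 1 and above 80 CPM in replicate 2, so its libraries overlapped fully. In a fit limited to genes that averaged 5 FPKM or more, 0 of these 10 models were DE genes. Of all genes in that fit 3.20% were, so 0 of 10 is near that share.

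For the family as a whole the diets overlapped. Its summed level was 692, 810 and 914 CPM in T_liver 1, 2 and 3 (805 ± 111, SD, n = 3), against 627, 940 and 441 CPM in C_liver 1, 2 and 3 (669 ± 252, SD, n = 3). The highest and the lowest sum were both C_liver libraries. The number of models with a count was 119, 119 and 134 in T_liver and 124, 127 and 107 in C_liver, which also overlapped.

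C_liver 3 stood at the low end for single models as well. It was the lowest library in 35 of the 67 models and the highest in 0, while C_liver 2 was the highest in 24 and the lowest in 0. C_liver 3 also had the highest sum of erythroid markers, 4320 CPM, within ranges of 442 to 2726 CPM in T_liver and 782 to 4320 CPM in C_liver (10 models, of which 1 hemoglobin beta model was at 0). Whether this bears on the NLR levels was not tested. In bulk liver, fewer cells of a type and less RNA per cell cannot be told apart.

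**Figure D2:**
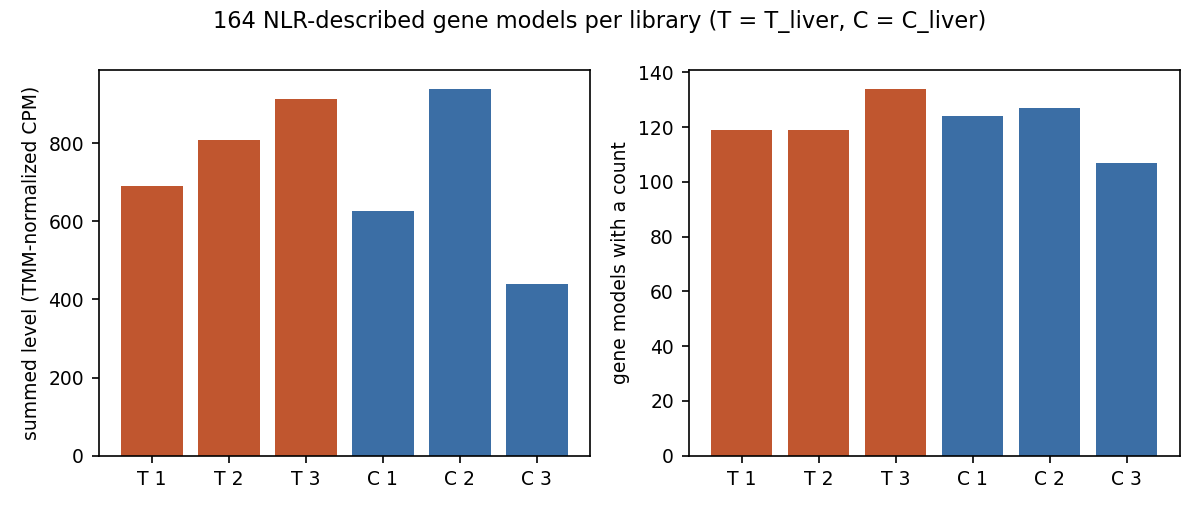
Summed TMM-normalized CPM of the 164 models (left) and the number of them with a count (right) in each library, T_liver libraries first. The sums of T_liver, 692 to 914 CPM, fall inside the range of C_liver, 441 to 940 CPM.

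Single copies were compared with edgeR's quasi-likelihood test in a fit over all 11521 genes that averaged 1 FPKM or more, so that 67 models were tested and 97 were not. DE genes were those that changed by 1 or more on the log2 scale, in either direction, with unadjusted P values under 0.05. Of the 67 models 6 were DE genes (8.96%), against 3.11% of all tested genes. Higher in T_liver were 5 (7.46%), against 1.49% of all tested genes, and lower in T_liver was 1 (1.49%), against 1.61%. The filter favors such differences at low levels, because a model can pass through the group in which it is high. This applied to 14 of the 67 models, which were under 1 FPKM in a group mean, 11 of them in C_liver and 3 in T_liver. Where 1 FPKM was required in each group mean, 53 models were tested and 2 were DE genes, both higher in T_liver (3.77%, against 1.21% of all genes so tested, or 2.55% in either direction).

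After Benjamini-Hochberg adjustment over all tested genes, edgeR's quasi-likelihood test left 0 models under 0.05 (smallest adjusted P 0.676), while 7 had an unadjusted P under 0.05 (6.64% of all tested genes did). DESeq2 on the same counts gave 3 of the 67 models under 0.05 after adjustment, against 42 of all 11521 tested genes. The exact test of edgeR gave 1 of 67, LOC113662009, against 14 of 11521. The 3 were LOC113661625, LOC113662006 and LOC113662009. The last pair passed the level filter only through T_liver, the group in which they were high, so their adjusted P values carry that selection.

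Most copies differed little, but not less than other genes did. Without regard to direction, the median log2 fold change was 0.34, against 0.30 over all tested genes. It was 1 or more in either direction in 10 models (14.9%), against 7.1% of all tested genes. In 42 of the 67 models the log2 fold change was within 0.5 of 0, 41 lay above 0 and 26 below, and the median was 0.18, against -0.00 over all tested genes. That median depended on C_liver, being 0.52 without C_liver 2 and 0.03 without C_liver 3. The groups did not overlap in 7 models (10.4%), against 13.1% of all tested genes. In all 7 the 3 T_liver libraries all lay above the 3 C_liver libraries, against 5.96% of all tested genes, and in 0 models all lay below, against 7.1%. With scaling by total counts the groups did not overlap in 4 models (5.97%), all above, against 3.29% of all tested genes above and 8.11% below. Without C_liver 3, where 3 libraries stand against 2, T_liver lay wholly above in 8 of 71 models (11.3%) and wholly below in 7 (9.86%), against 9.58% and 10.9% of all genes tested.

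**Figure D3:**
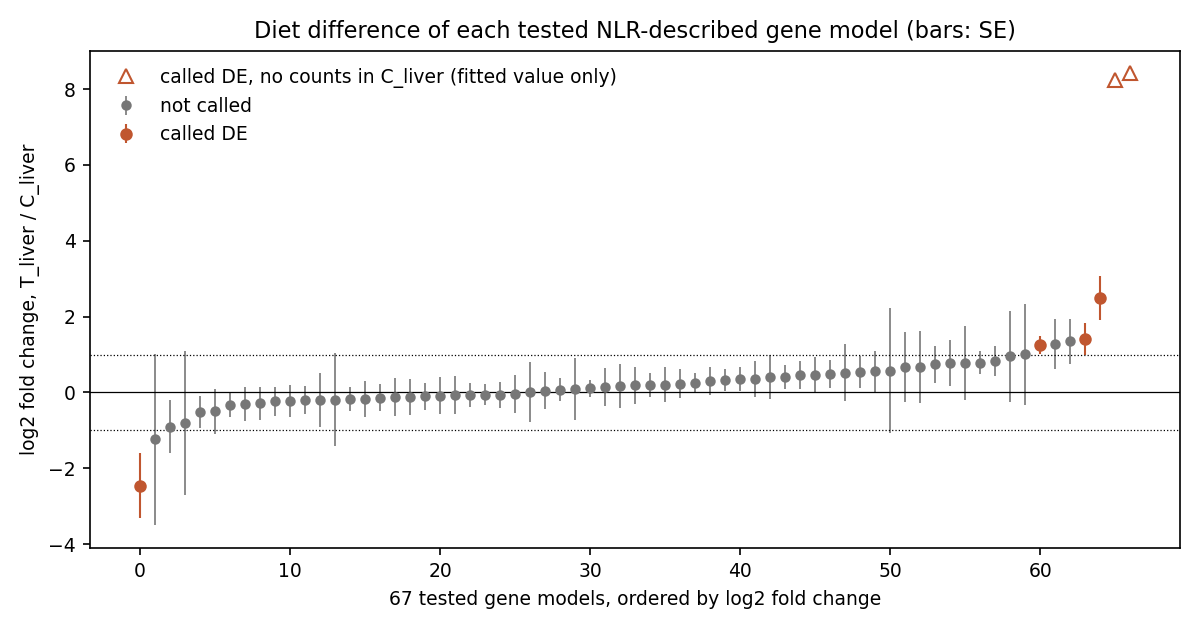
Log2 fold change (T_liver relative to C_liver, vertical axis) of the 67 tested models in rising order, with bars of 1 SE; orange marks DE genes, and open triangles are the 2 DE genes without counts in C_liver, whose fitted value depends on the prior count and has no bar. Between the single DE gene at -2.46 and the DE genes at the right end, most models lie near 0.

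Of the 6 DE genes, the one with the smallest SE was LOC113661625, an NLRP12 model on NW_020847769.1 (554371 to 569444, minus strand). It measured 12.9, 11.9 and 15.5 CPM in T_liver 1, 2 and 3, against 5.02, 6.33 and 5.53 CPM in C_liver 1, 2 and 3. All T_liver libraries were above all C_liver libraries, with means of 13.4 ± 1.84 CPM in T_liver and 5.63 ± 0.662 CPM in C_liver (SD, n = 3 each). The log2 fold change was 1.25 (SE 0.24, unadjusted P = 0.000957, adjusted P = 0.676, edgeR; DESeq2 adjusted P = 0.0124), and it stayed between 1.14 and 1.35 when each library was left out in turn. NLRP12 is known in mammals as a regulator that limits inflammatory signaling, a role not established for the fish copies that share the name.

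The nearest member to it, LOC113658475, is also an NLRP12 model and lies 1053 bp away on the opposite strand (537261 to 553318). It was named after its values were seen. Its levels were 4.44, 4.88 and 7.12 CPM in T_liver, against 1.68, 3.55 and 2.45 CPM in C_liver. T_liver lay above C_liver in this neighbor too, but at a mean of 0.667 FPKM it was not tested. With a filter of 0.1 FPKM its log2 fold change was 1.09 (unadjusted P = 0.0235, adjusted P = 0.758, edgeR). Whether the pair share reads was not tested.

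LOC113641510 is an NLRP1b model on NW_020848398.1 (1941579 to 1956296, plus strand). NLRP1 proteins of mammals form inflammasomes when pathogen proteases or other triggers act on them. Its levels were 5.32, 9.72 and 11.1 CPM in T_liver 1, 2 and 3, against 2.54, 4.95 and 2.37 CPM in C_liver 1, 2 and 3. The lowest T_liver library lay just above the highest C_liver library. The log2 fold change was 1.41 (SE 0.42, unadjusted P = 0.0121, adjusted P = 0.676, edgeR) and lay between 1.19 and 1.83 with each library left out. This model and LOC113661625 are those that remained DE genes when 1 FPKM was required in each group mean. The other 2 tested NLRP1b models, LOC113659125 and LOC113641538, had log2 fold changes of 0.18 and -0.08.

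The scaffold NW_020848081.1 carries a pair of NLRC3 DE genes higher in T_liver. LOC113662006 (446064 to 480541, minus strand) measured 5.23, 4.51 and 18.1 CPM in T_liver 1, 2 and 3, against 1.51, 1.84 and 1.56 CPM in C_liver 1, 2 and 3. The C_liver libraries were close together and all below T_liver, while T_liver 3 stood far above the others. The log2 fold change was 2.50 (SE 0.58, unadjusted P = 0.00322, adjusted P = 0.676, edgeR; DESeq2 adjusted P = 0.00977). The model passed the level filter only through T_liver, with a mean of 2.42 FPKM, against 0.41 FPKM in C_liver. Without T_liver 3 it fell below that filter and was not tested.

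LOC113662009 (391175 to 394330, plus strand) had 25, 43 and 43 counts in T_liver 1, 2 and 3, and 0 counts in each C_liver library. Set against 3 counts per C_liver library, the floor for a count of 0, it was at least 12.6-fold higher in T_liver (unadjusted P = 0.00151, adjusted P = 0.676, edgeR; DESeq2 adjusted P = 0.000938; adjusted P = 1.40e-06 with edgeR's exact test). LOC113662009 too passed the level filter only through T_liver, with a mean of 2.22 FPKM there. Without T_liver 2 or T_liver 3 it fell below that filter and was not tested. A further NLRC3 model, LOC113661984, named after its values were seen, begins 536 bp beyond its end. That neighbor measured 1.96, 1.28 and 3.33 CPM in T_liver, against 1.61, 1.73 and 1.79 CPM in C_liver. Its groups overlapped (log2 fold change 0.36, unadjusted P = 0.473, adjusted P = 0.851, edgeR), so neighboring copies on this scaffold did not share the all-or-none pattern.

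LOC113649486, an NLRC3 model of 1809 bp on NW_020847874.1 (583660 to 585468), was a DE gene through a single library. It had 9, 0 and 130 counts in T_liver 1, 2 and 3 and 0 counts in each C_liver library. T_liver 2 equalled C_liver, and the exact 2-sided permutation p was 0.4. The T_liver mean was at least 14.1-fold above the floor of 3 counts per C_liver library. LOC113649486 passed the level filter only through T_liver, with a mean of 2.93 FPKM there, so its P value carries that selection. Without T_liver 3 it was not tested, and without any 1 of the C_liver libraries it was no longer a DE gene. The 4 other tested members among the 8 on its scaffold had log2 fold changes of -0.31 to -0.04. Among them LOC113649511, the most abundant by FPKM, was at -0.11.

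The only DE gene lower in T_liver was LOC113645412, an NLRC3 model on NW_020847801.1 (2573396 to 2600825). It measured 1.41, 0.440 and 1.75 CPM in T_liver 1, 2 and 3, against 11.8, 6.93 and 1.16 CPM in C_liver 1, 2 and 3. C_liver 3 lay below T_liver 1 and T_liver 3, so the groups overlapped. Means were 1.20 ± 0.678 CPM in T_liver and 6.62 ± 5.31 CPM in C_liver (SD, n = 3 each), with a log2 fold change of -2.46 (SE 0.86, unadjusted P = 0.0231, adjusted P = 0.676, edgeR) and an exact 2-sided permutation p of 0.3. LOC113645412 passed the level filter only through C_liver, with a mean of 1.80 FPKM, against 0.31 FPKM in T_liver. Its P value therefore carries that selection. It was not a DE gene without T_liver 1 (-2.57) or without T_liver 2 (-2.06), and without C_liver 1 or C_liver 2 it fell below the level filter.

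A pair of models too low for the level filter were all or none between the diets. LOC113663363, an NLRC3 model on NW_020848107.1 (3365082 to 3384638), had 407, 545 and 61 counts in T_liver 1, 2 and 3, and 0 counts in each C_liver library. T_liver 3 was well below the other T_liver libraries but still clear of C_liver. The mean was at least 123-fold higher in T_liver against a floor of 3 counts per C_liver library. With a filter of 0.1 FPKM the model was a DE gene (unadjusted P = 0.000684, adjusted P = 0.758, edgeR). The reverse held for LOC113647892, an NLRP12 model on NW_020847830.1 (545528 to 553395) named after its values were seen. It had 0 counts in each T_liver library and 9, 28 and 99 counts in C_liver 1, 2 and 3, at least 16.4-fold lower in T_liver with the same floor, and was a DE gene with a filter of 0.1 FPKM (unadjusted P = 0.00695, adjusted P = 0.758, edgeR). Exact 2-sided permutation tests gave 0.1 for both models, the smallest p that 3 libraries against 3 allow. LOC113663363 was named for its absence from a group and LOC113647892 after its values were seen. That p was therefore fixed by the choice of models, and their edgeR P values carry the same selection. The share of all genes without counts in a whole group was not computed.

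**Figure D4:**
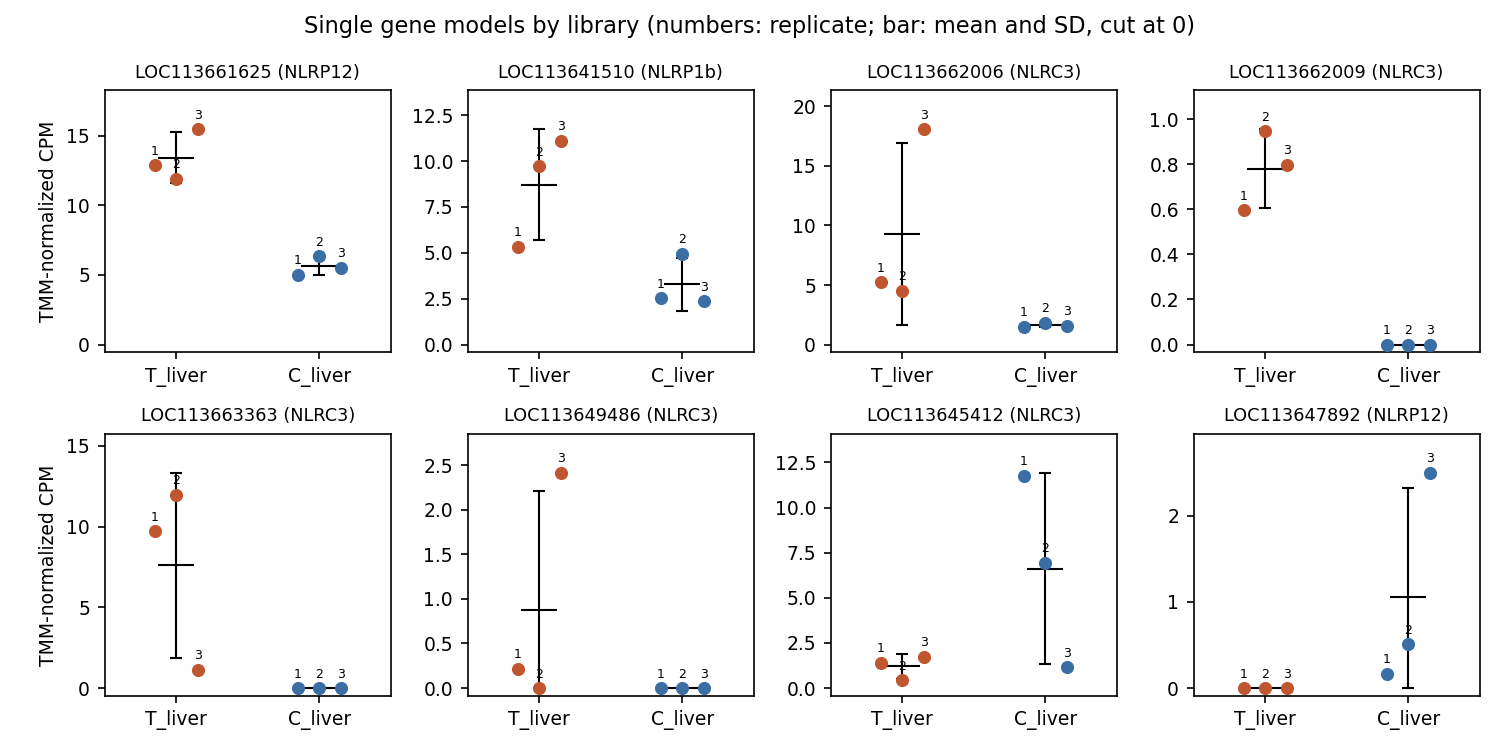
TMM-normalized CPM of 8 single models in T_liver (left) and C_liver (right) of each panel; points are libraries with their replicate numbers, and bars are mean and SD, cut at 0. The top row shows models whose T_liver libraries all lie above C_liver; in the bottom row LOC113663363 is without counts in C_liver, LOC113647892 is without counts in T_liver, and LOC113649486 and LOC113645412 overlap.

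Some copies met only part of the DE criteria. LOC113638797, an NLRC3 model named after its values were seen, measured 8.45, 2.62 and 2.36 CPM in T_liver 1, 2 and 3, against 2.43, 1.64 and 1.19 CPM in C_liver 1, 2 and 3. T_liver 1 stood far above the other libraries and T_liver 3 lay below C_liver 1, so the groups overlapped. Its log2 fold change was 1.35 (SE 0.60, unadjusted P = 0.0568, adjusted P = 0.676, edgeR), and it met the criteria with DESeq2 (unadjusted P = 0.0297, adjusted P = 0.523). LOC113647666, an NLRP3 model on NW_020847763.1, passed the P threshold but not that of the fold change. It measured 16.0, 12.2 and 12.1 CPM in T_liver 1, 2 and 3, against 10.1, 8.14 and 5.10 CPM in C_liver 1, 2 and 3. The groups did not overlap (log2 fold change 0.79, SE 0.31, unadjusted P = 0.0365, adjusted P = 0.676, edgeR). The other 3 tested members among the 10 on its scaffold lay at -0.51 to 0.18. The other tested NLRP3 model, LOC113663787, had a log2 fold change of -0.50 with overlapping groups. LOC113637931, an NLRC3 model, also lay higher in every T_liver library, of which the lowest was at 7.72 CPM, against 7.39 CPM in the highest C_liver library (log2 fold change 0.82, unadjusted P = 0.077, adjusted P = 0.676, edgeR).

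Of the members with a symbol only nod1 and nlrc5 were tested, and neither was a DE gene. Over all tested genes 3.11% were, so none among so few is near that share. The gene nod1, the sensor of bacterial cell wall fragments, measured 12.6, 7.76 and 11.8 CPM in T_liver, against 7.06, 8.39 and 10.2 CPM in C_liver (log2 fold change 0.33, SE 0.28, unadjusted P = 0.283, adjusted P = 0.769, edgeR). nlrc5, the regulator of MHC class I genes, measured 9.91, 17.4 and 13.2 CPM in T_liver, against 11.4, 11.7 and 7.42 CPM in C_liver (log2 fold change 0.41, SE 0.30, unadjusted P = 0.220, adjusted P = 0.739, edgeR). In both genes the groups overlapped. The other NLRC5 model, LOC113634405, which was named after its values were seen and overlaps another gene model, ranged from 0.955 to 14.8 CPM within T_liver and from 1.36 to 7.23 CPM within C_liver. nod2 was near the limit of detection, with 7, 19 and 0 counts in T_liver and 8, 17 and 0 counts in C_liver. The gene with the symbol nlrc3 averaged 0.300 FPKM, below the level filter. nwd1 had 4 counts in T_liver 3 only, and nwd2 had 10 counts in C_liver 1 only.

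The receptors varied between libraries of the same diet more than other genes did. The median within-group SD of log2(CPM + 0.1) was 0.631 over the 67 models and 0.396 over all tested genes, and edgeR's biological coefficient of variation had medians of 0.453 and 0.344. This spread includes a shift that models of a library shared. Their median log2 deviation was 0.44 in C_liver 2, -0.68 in C_liver 3 and -0.087 to 0.31 in the other libraries. The pooled within-group SD of these medians was 0.41. How much of the spread of single models this shift makes up was not tested. Over the 6 libraries of both diets, the highest was at least 8 times the lowest in 15 models (22.4%), against 7.35% of all tested genes. This ratio also takes in differences between the diets. In 13 of these 15 the diets overlapped. The share that overlapped among all genes that varied so was not computed. Among the 57 models between 1 and 5 FPKM 14 (24.6%) varied so, against 8.91% of all genes in that range of levels. No test of the list was made, and these shares are descriptions.

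Examples of this variation were chosen after their values were seen. LOC113640023, an NLRC3 model, measured 21.8, 4.05 and 17.6 CPM in T_liver, against 0.205, 17.5 and 4.74 CPM in C_liver. LOC113652893, likewise NLRC3, measured 0.549, 0.0660 and 10.1 CPM in T_liver, against 0.187, 18.2 and 0.429 CPM in C_liver. In each of these, libraries of both diets were high and libraries of both were low.

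A stricter form of the same pattern was a model without a count in a library but with 50 or more in another, of either diet. It occurred in 17 of the 112 models that reached 50 counts in any library (15.2%), against 7.4% of all such genes (1152 of 15562). These shares were not matched for level, and a 0 is more likely in a model of few counts. In 14 of the 17 the diets overlapped, and the share that overlapped among the 1152 genes was not computed. LOC113652930, an NLRC3 model named after its values were seen, had 0, 945 and 139 counts in T_liver 1, 2 and 3, against 43, 682 and 96 counts in C_liver 1, 2 and 3. A count of 0 beside 945 counts in the same group thus occurred without a change of diet. The absences of LOC113662009, LOC113663363, LOC113649486 and LOC113647892 from a whole group stand beside this frequency of absences from single libraries. Their part in the diet differences was not tested.

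**Figure D5:**
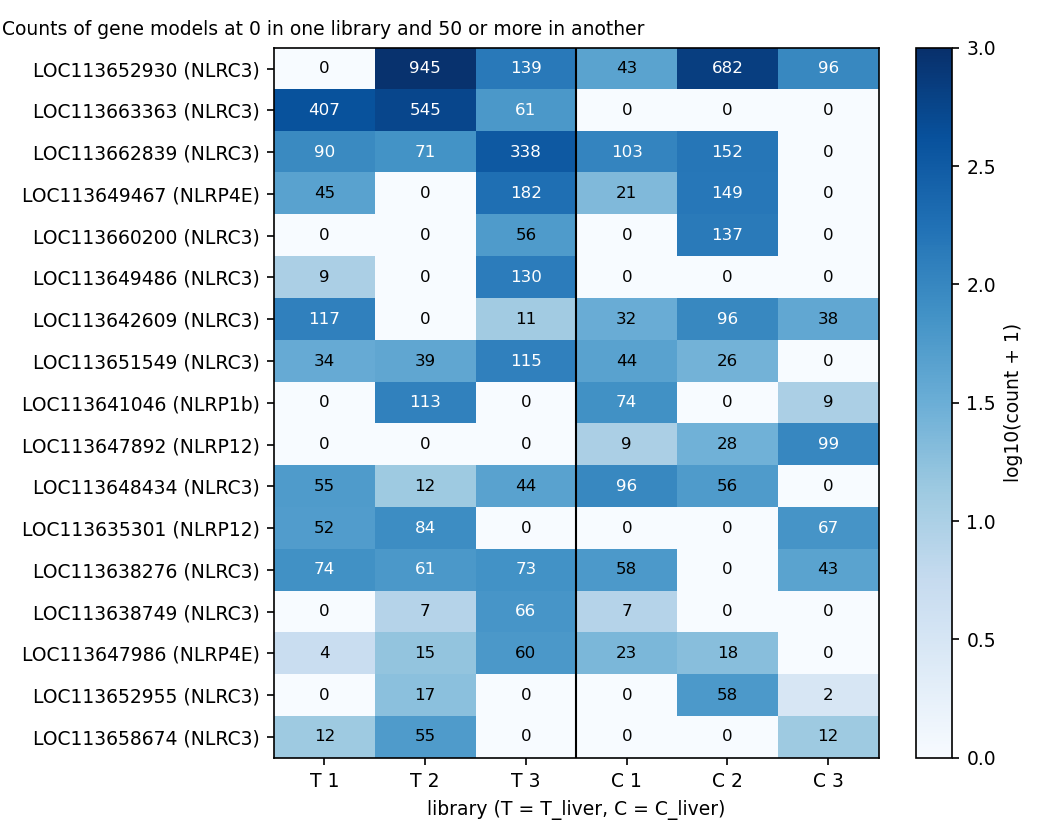
Counts (numbers; shade, log10 of count + 1) of the 17 models at 0 in a library and at 50 or more in another, by library, T_liver left of the line and C_liver right. In 14 of the 17 rows the diets overlap, among them LOC113649486, which is without counts in C_liver and in T_liver 2. LOC113663363 is absent from C_liver, LOC113647892 is absent from T_liver, and LOC113638276 is higher in every T_liver library.

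Apart from the pair on NW_020848081.1, the DE genes of the family lay on separate scaffolds. Of the 6 scaffolds with 5 or more members, NW_020847801.1 and NW_020847874.1 each held 1 DE gene and the others 0. On NW_020847824.1 the only tested member was LOC113647494, with a log2 fold change of 0.54, and on NW_020848115.1 the 3 tested members lay at -0.50 to 0.11. On NW_020847830.1 no member reached the level filter. The most abundant there, LOC113647903, measured 4.13, 2.92 and 8.71 CPM in T_liver, against 0.299, 3.86 and 2.25 CPM in C_liver, with overlapping groups.

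Genes that act with the receptors were taken from lists by symbol or description. Found were 20 of 24 symbols of the NOD signaling partners, 7 of 17 of the inflammasome list, 11 of 15 of the MHC class I list and 5 of 9 of the NLRX1 list. Of the NOD signaling partners 16 were tested and 0 were DE genes, with a median log2 fold change of 0.19. The largest value was that of card9, an adaptor that links several receptors to NF-κB, at 1.21 (unadjusted P = 0.0574, adjusted P = 0.676, edgeR). Its groups overlapped, with T_liver 2 at 1.61 CPM below C_liver 1 at 1.90 CPM. ripk2, the kinase below nod1, measured 27.1, 25.3 and 19.8 CPM in T_liver, against 18.2, 27.8 and 12.1 CPM in C_liver (0.31). nfkbia, the inhibitor that NF-κB itself induces, was at 0.83 (unadjusted P = 0.0941, adjusted P = 0.676, edgeR).

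The inflammasome list had 6 tested genes, 0 DE genes and a median of -0.19, with the ASC model LOC113652105 at -0.13. No caspase-1 gene was among its matches, so these values cover only part of the inflammasome. Of the MHC class I genes linked to NLRC5, 14 were tested, 0 were DE genes and the median was 0.06, with b2m, the light chain of MHC class I, at 0.08. The 4 tested genes of the NLRX1 list included 0 DE genes and had a median of -0.16. Among the 85 other tested genes annotated to the KEGG pathway NOD-like receptor signaling, 3 were DE genes higher in T_liver and 0 lower. Over all tested genes 1.49% were higher and 1.61% lower, or 3.11% in either direction. A count of 3 of 85 is near the share in either direction, but above that of genes higher in T_liver. This set was not tested. The median log2 fold change of the 85 was 0.12. The 3 DE genes were gdpd1 at 2.17, LOC113646832 at 1.62 and LOC113655785 at 1.69, named after their values were seen.

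Of the tested markers of immune cells, which express NLR genes and are present in liver, 0 were called higher in T_liver. The 6 macrophage models summed to 14.5 to 21.2 CPM in T_liver and 16.4 to 35.7 CPM in C_liver, and of the 3 tested csf1r, the receptor for macrophage colony-stimulating factor, was lower in T_liver (log2 fold change -1.09, unadjusted P = 0.0417, adjusted P = 0.676, edgeR). The 6 neutrophil models summed to 35.1 to 121 CPM in T_liver and 45.9 to 71.2 CPM in C_liver, with 0 of 4 tested called. The 4 B cell models summed to 19.6 to 42.8 CPM in T_liver and 27.9 to 32.0 CPM in C_liver, with 0 of 2 tested called. The 6 T cell models were near the limit, at 3.38 to 4.56 CPM in T_liver and 3.68 to 7.71 CPM in C_liver. None of these 6 was tested and a CD8 alpha model was at 0. In all 4 lists the ranges of the diets overlapped. Coverage was partial, with 4 of 11 macrophage, 6 of 8 neutrophil, 4 of 7 B cell and 5 of 10 T cell symbols found.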

How the data were processed

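Liver RNA of T_liver and C_liver was measured in 3 libraries each. After read filtering and HISAT alignment to T. fulvidraco, the authors deposited 1 table with raw counts and FPKM per gene, in which genes without a count stand at 0.0001 FPKM. The submitters' processing notes also name HISAT2 2.0, StringTie 1.3.0, Bowtie 0.12.2 and a mouse build. Not given in the sources used here are the build of the scaffold positions, the counting tool and its strand setting. The paper and the labels name different Illumina instruments.

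From the deposited counts, genes averaging 1 FPKM or more in the 6 libraries were compared with edgeR 4.0.16 in R 4.3.3 (TMM, trended dispersion, quasi-likelihood test, no covariate). DE genes changed by 1 or more on the log2 scale with unadjusted P values under 0.05, after the criteria in the paper's methods. Standard errors came from the F statistics. Benjamini-Hochberg adjustment ran over all 11521 tested genes. For single values, exact permutation tests (2-sided) were added. The floor of a count of 0 was 3 counts per library and covers counting error only, because PCR copies of a molecule were not told apart. Alternatives were DESeq2 1.42.0, edgeR's exact test, limma 3.58.1 on log2(FPKM + 1) or log2(FPKM + 0.1) of the deposited FPKM, other scalings and filters, a replicate block and leaving out each library. The fit was tested on simulated data. Same-numbered libraries of both groups did not deviate together (correlations -0.11, 0.05 and -0.15), so numbers were not taken as pairs.

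Named are the DE members, the 10 highest by FPKM, members with a symbol and the DE genes of the lists. Also named are members without counts in a group and at least 10 in each library of the other. Further ones are the 5 largest differences in each direction without overlap. The last are the most abundant and most changed copy of each scaffold with 5 or more members. Of the list DE genes, the pancreatic ones are given as a count. Most others are marked as chosen after their values were seen. Single list genes that are not DE genes, LOC113659125, LOC113641538 and LOC113638276 also fall outside these rules. They too were named with their values known. Members and lists were chosen with earlier results of these data known.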

Additional observations from a re-analysis of the deposited data

How the results depend on the processing

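The number of DE genes among the models was 6 of 67, with the share of all tested genes at 3.11%. It was 3 of 67 with limma on log2(FPKM + 1) (all genes 1.65%). Filters changed the number tested: 10 of 132 with 0.1 FPKM (3.48%), 11 of 153 with no filter (3.77%) and 0 of 10 with 5 FPKM (3.20%). With 1 FPKM in each group mean, an alternative chosen after seeing the data, it was 2 of 53 (2.55%). At a Benjamini-Hochberg adjusted P under 0.05 it was 0 with edgeR's quasi-likelihood test, 3 with DESeq2 and 1 with edgeR's exact test. With limma on log2(FPKM + 0.1), LOC113662009 had an adjusted P of 0.00645. With each library left out the number of DE genes among the models was 4 to 8, of 57 to 71 tested models, with 2.20% to 5.64% of all genes. Over all genes, 358 DE genes became 543 with filterByExpr, 190 with limma on log2(FPKM + 1), 579 with 0.1 FPKM, 174 with 5 FPKM and 774 with no filter. After adjustment in edgeR's quasi-likelihood test they became 0. With each library left out the number was 255 to 651, with 622 without C_liver 2 and 651 without T_liver 2. The 11 DE genes of the lists became 6 to 13 with each library left out, 7 without C_liver 1 and 6 without T_liver 1. Models expressed in liver numbered 67 at 1 FPKM, 132 at 0.1 FPKM and 10 at 5 FPKM. Groups did not overlap in 7 models with TMM (10.4%, against 13.1% of all tested genes), in 4 with total counts only (5.97%, against 11.4%), in 4 with the deposited FPKM (chosen after seeing the data; 5.97%, against 11.6%) and in 8 to 16 with each library left out (14.0% to 23.2%, against 20.5% to 30.2%). The median log2 fold change of the models was 0.03 to 0.52 with each library left out.

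With the replicate number as a block, which the pairing check gave no ground for, 6 models were DE genes, of which 5 were shared with the fit without the block, and 329 genes in all. LOC113645412 was not a DE gene with the block (log2 fold change -2.29).

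For the named single genes, only alternatives in which a gene was tested are counted here. Of these values, 379 kept their direction and their side of the criteria, 11 no longer met the criteria and 3 newly met them. A further 14 changed sign, all in models that were DE genes neither before nor after. Alternatives in which a DE gene fell below a filter are thus not among the 11. A filter of 5 FPKM, for example, left none of the 6 DE genes tested. With single libraries left out, the log2 fold change ranged from -0.27 to 0.18 for LOC113634793, from -0.50 to 0.11 for LOC113636435, from -0.33 to 0.19 for LOC113638331, from -0.15 to 0.69 for LOC113646143, from -0.42 to 0.051 for LOC113646198, from -0.44 to 0.43 for LOC113649511, from -0.093 to 0.55 for LOC113658673 and from -0.0019 to 0.19 for LOC113663807, and it was 0.012 for LOC113638331 with the replicate block. LOC113641510 met the criteria in 17 of the 17 alternatives that tested it. LOC113661625 met them in 16 of the 17 that tested it, the exception being limma on log2(FPKM + 1) at 0.76, where the pseudocount shrinks low values. LOC113649486 and LOC113645412 each met them in 9 of the 14 alternatives that tested them. In the others of those 14 they were tested and did not meet the criteria, among them both limma fits. In the alternatives outside the 14 they fell below the filter. Depth limits the models without a count, where 3 counts per library is the floor.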
